A study of Mus musculus with 12 samples.

Results

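The genotype by surgery interaction asks whether the heart's transcript response to pressure overload differed between wild type (WT) mice and mice homozygous for a serine-to-alanine exchange at position 14 of Bcl-xL (S14A knock-in, KI). It was taken gene by gene as the KI response (TAC minus sham) minus the WT response (TAC minus sham) on the log2(RPKM + 1) scale. All 12 mice of the series entered it, 3 per combination of genotype (WT or KI) and surgery (sham or TAC), and 11240 of the 13552 genes in the table were tested. A positive interaction means that the KI response lay above the WT response, and a negative one that it lay below it. In transverse aortic constriction (TAC) a suture narrows the aortic arch, and sham mice had surgery without the constriction. Hearts of young adult male mice, labelled C57BL/6 (C57BL/6J in the methods), were taken 9 h after surgery. The methods name purchased WT mice and a bred KI line, made by gene targeting and carrying the exchange in every cell, so that origin and genotype cannot be told apart. RPKM relate the reads on a gene to its exon length and to library depth, and each value below is from the heart of 1 mouse.

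Bcl-xL is an anti-apoptotic member of the Bcl-2 family that also binds the inositol trisphosphate receptor, a calcium release channel. Within hours of pressure overload, cardiac myocytes switch on immediate early transcription factors, stretch-sensing ankyrin and LIM proteins, chemokines and growth-associated genes, and lower many of the ion channels and metabolic enzymes of the adult heart. Fibroblasts and other interstitial cells add matrix and matricellular proteins, and stress hormones act through the glucocorticoid receptor on their own set of targets.

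By the smallest step between low RPKM values, libraries held 23650182 to 32455176 reads on genes, and those of the WT TAC (25715283 to 29608545) and KI TAC mice (30298167 to 31676885) did not overlap in depth. Summed over 10 cardiomyocyte markers, the level was 14481 to 25136 RPKM across the 12 hearts, with overlapping groups. Taken gene by gene, the median change of these markers was −0.59 in WT and −0.01 in KI. Their median interaction was 0.29, from 0.09 to 0.51 with single mice left out and 0.02 after quantile normalization. At an unadjusted p under 0.05 (limma), 4 interactions were positive and 1 negative, against 3.86% and 11% of all genes. None of 10 lymphocyte markers was in the table, and 2 of 10 adipocyte, 2 of 10 skeletal muscle and 1 of 10 lung markers were. Between KI and WT sham hearts, 2 genes passed an adjusted p of 0.05 (limma, Benjamini-Hochberg) and 37 of 11240 an unadjusted p of 0.05. The latter are fewer than that p gives without any difference, so the count does not show equal baselines. This fit shares its estimate of the spread with the TAC hearts, and a fit of the sham hearts alone gave 83. The 2 genes were the predicted transcripts Gm14267, at 0.225 to 0.571 RPKM in the 6 WT hearts and 1.53 to 3.93 RPKM in the 6 KI hearts, and Gm6334, at 0 to 0.336 and 6.28 to 22.2 RPKM, both named after their values were seen.

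No gene passed the threshold for the interaction. Of 11240 genes, 0 (0%) had an adjusted p under 0.05, and the smallest adjusted p was 0.0764 (limma with Benjamini-Hochberg adjustment). At an unadjusted p under 0.05 there were 1668 genes, 434 with a positive interaction (3.86% of those tested) and 1234 with a negative one (11% of those tested). The median standard error of an interaction was 0.27, against a median interaction over all genes of −0.13, and 63.4% of all interactions lay below 0. That median was 0.00 after quantile normalization or median-ratio scaling, and the positive share of the 1668 rose from 26.0% to 49.0% and 52.2% of those passing there, so the excess of negative values rests on the scaling. Gene classes are therefore read against the all-gene median of −0.13. Without KI TAC mouse 7 there were 182 interactions past the threshold (34 positive, 148 negative), without WT TAC mouse 9 there were 240 (62 positive, 178 negative), and without WT TAC mouse 10 there were 8. The first and second of these fits shared 68 genes.

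Within each genotype TAC changed many genes. In WT hearts 782 genes rose (6.96%) and 517 fell (4.6%), and in KI hearts 963 rose (8.57%) and 1657 fell (14.7%). The larger number of falls in KI hearts also moved with the scaling, since 36.8% of the KI calls were increases as deposited and 51.5% after median-ratio scaling, and 60.2% against 51.1% of the WT calls. Of the genes called in WT, 57.7% were also called in KI, and of those called in KI, 28.6% were also called in WT (750 genes). The genes fell into classes by fixed thresholds. Both genotypes moved the same way in 745 genes, of which 422 rose and 323 fell. A gene was put in a WT-restricted class when it passed the adjusted threshold in WT, had an unadjusted p of 0.05 or more in KI and an unadjusted interaction p under 0.05, and the KI-restricted classes mirrored this. There were 152 genes that rose and 47 that fell in the WT-restricted classes, and 128 that rose and 515 that fell in the KI-restricted classes. These splits moved with the scaling: after median-ratio scaling the WT-restricted classes held 110 rises and 120 falls, and the KI-restricted classes 276 rises and 340 falls. For 1577 genes the call was in 1 genotype but a difference between genotypes was not shown. Since no interaction passed the adjusted threshold, "restricted" names a class and not a proven difference for any single gene.

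**Figure D1:**
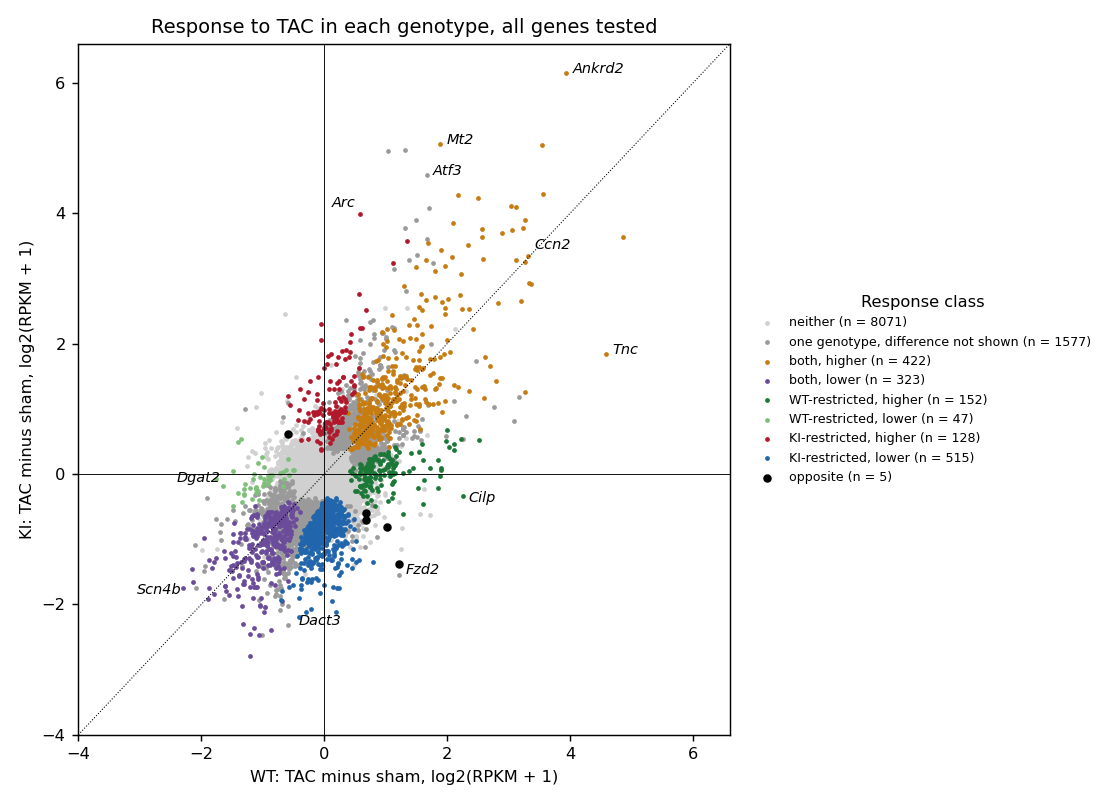
Change after TAC in WT hearts (x axis) against the change in KI hearts (y axis), both as TAC minus sham in log2(RPKM + 1), for 11240 genes coloured by response class, with the dotted line marking equal change. Most of the 745 genes that moved the same way in both genotypes lie near the line, the KI-restricted falls (515 genes) form a cloud under the WT zero, and 5 genes were called in opposite directions.

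The opposite class held 5 genes, 4 of them higher after TAC in WT and lower in KI. Fzd2 (ENSMUSG00000050288, chromosome 11, 102604396 to 102608058 of GRCm38), a Frizzled receptor for Wnt ligands, was at 7.20, 5.69 and 4.68 RPKM in WT sham mice 1, 2 and 3 and at 16.6, 12.8 and 15.2 in WT TAC mice 7, 9 and 10. In KI hearts it was at 11, 6.45 and 5.05 RPKM in sham mice 1, 2 and 3 and at 1.10, 1.66 and 4.44 in TAC mice 5, 6 and 7. Every WT TAC heart lay above all sham hearts and every KI TAC heart below them. The WT change was 1.22 (SE 0.32, adjusted p = 0.0237) and the KI change −1.38 (SE 0.32, adjusted p = 0.00707, limma). The interaction of −2.60 (95% interval −3.56 to −1.64) had an adjusted p of 0.0988 and stayed between −3.00 and −2.32 when any 1 mouse was left out.

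Gpr153, an orphan receptor (chromosome 4, 152274232 to 152285337), was at 38.4 to 46.4 RPKM in WT sham hearts and at 121, 71.9 and 68.1 in WT TAC hearts. It was at 40.5 to 52.6 RPKM in KI sham hearts and at 37.5, 17.6 and 25.6 in KI TAC hearts, again without overlap in either genotype. Its interaction was −1.83 (SE 0.38). Lclat1, a cardiolipin-remodelling acyltransferase of the endoplasmic reticulum, rose by 0.68 in WT and fell by 0.71 in KI, an interaction of −1.39 (SE 0.29), and Olfm1, an olfactomedin that can bind Wnt proteins, rose by 0.69 and fell by 0.60, an interaction of −1.29 (SE 0.25). Olfm1 was at 0.995 to 5.01 RPKM across the 12 hearts. The other member, the noncoding transcript 1700007L15Rik, which was added after its values were seen, went the other way, at 0.732 to 0.986 RPKM in WT TAC and 1.76 to 2.05 RPKM in KI TAC hearts, with an interaction of 1.21 (SE 0.22). At an unadjusted p under 0.05 in both genotypes, 47 genes had opposite signs, 41 higher in WT and lower in KI and 6 the reverse. The opposite class held 0 genes without WT TAC mouse 7 or without WT sham mouse 2, and 17 without WT TAC mouse 9.

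**Figure D2:**
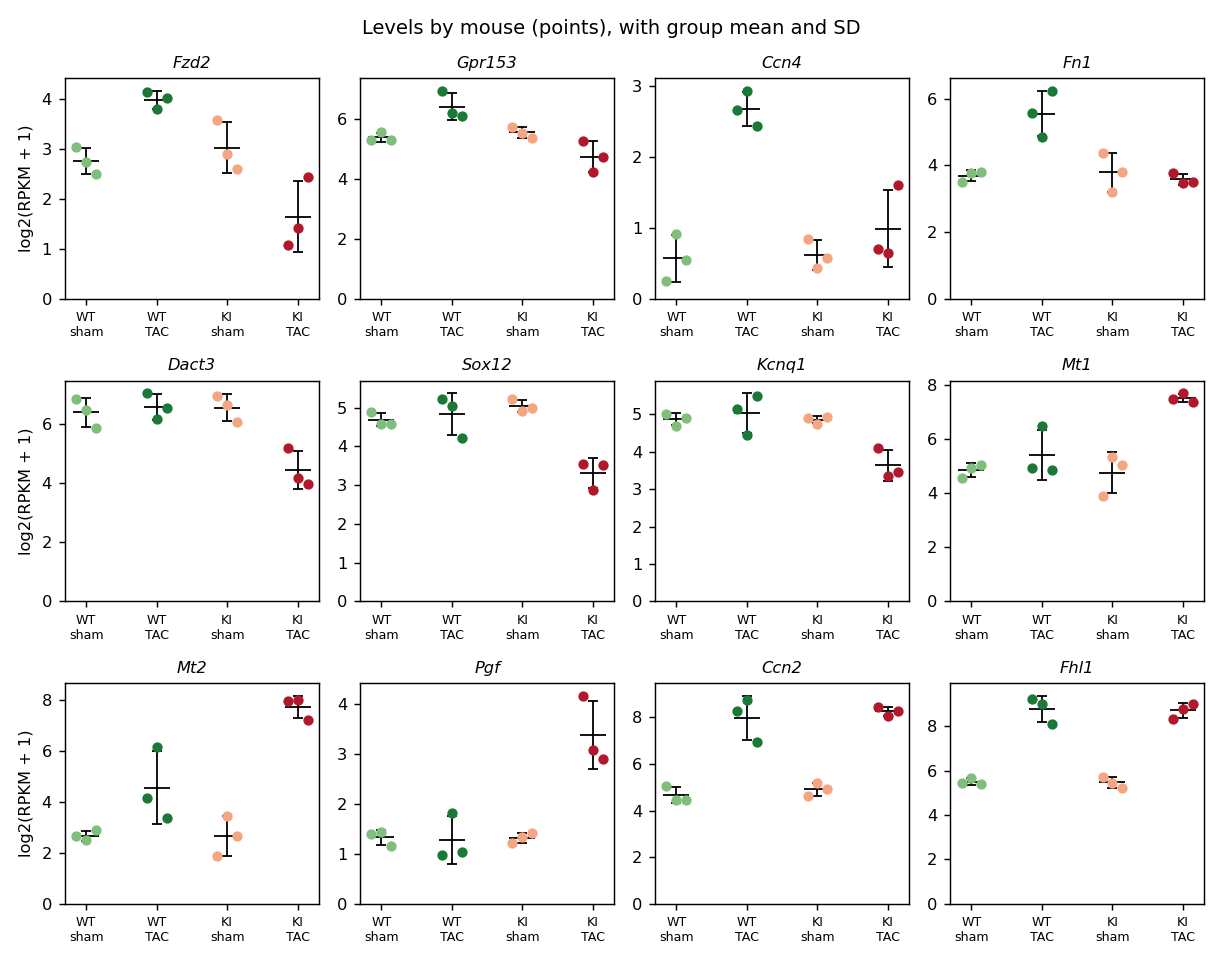
Levels of 12 genes as log2(RPKM + 1) (y axis from 0) in the 4 groups (x axis), with 1 point per mouse and the group mean and SD (n = 3) as bars. Fzd2 and Gpr153 part in opposite directions, Ccn4 and Fn1 rise in WT TAC, Dact3, Sox12 and Kcnq1 are low in KI TAC, Mt1, Mt2 and Pgf are highest in KI TAC, and Ccn2 and Fhl1 rise alike in both genotypes.

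Of 31 collagen and fibrillar matrix genes tested, 11 rose and 1 fell in WT hearts and 3 rose and 3 fell in KI hearts, with 6 members in the WT-restricted rise. The background was 6.96% and 4.6% of all genes in WT and 8.57% and 14.7% in KI, and 1.35% in the WT-restricted rise. The list's median change was 0.90 in WT and −0.22 in KI. Its median interaction was −0.93, or −0.80 relative to all genes, and −0.61 without WT TAC mouse 10. Of the 31 members, 26 lay below 0 (63.4% of all genes) and 14 had a negative interaction at an unadjusted p under 0.05 (11% of all genes). Bulk RNA does not tell fewer cells of a type from less RNA per cell. The 10 fibroblast markers, which share Col1a1 and Col1a2 with this list, had medians against the shams of the same genotype of 0.31, −0.36 and 0.61 in WT TAC mice 7, 9 and 10 and of −0.43, −0.22 and 0.12 in KI TAC mice 5, 6 and 7, the same order within each genotype as the collagens. Their part in this result was not tested.

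Fn1, the gene of fibronectin, was at 10.4, 12.6 and 13.1 RPKM in WT sham hearts and at 47.0, 28 and 73.7 in WT TAC mice 7, 9 and 10. In KI hearts it was at 19.8, 8.26 and 13.1 RPKM after sham and at 12.7, 10.2 and 10.3 after TAC. The KI groups overlapped and the WT groups did not. Its WT change was 1.86 (SE 0.32, adjusted p = 0.00283), its KI change −0.22 (SE 0.32, adjusted p = 0.658) and its interaction −2.07 (SE 0.45, 95% interval −3.04 to −1.11, limma). Ccn4, a matricellular protein induced by Wnt signalling, was below 1 RPKM in all sham hearts, at 5.32, 6.65 and 4.44 RPKM in WT TAC hearts and at 0.635, 0.562 and 2.06 RPKM in KI TAC hearts. Its interaction was −1.73 (SE 0.35).

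Other genes of the WT-restricted rise with the largest WT changes were Ltbp2, a latent TGF-beta binding protein (WT 2.52, KI 0.52), Cilp, a cartilage intermediate layer protein (WT 2.25, KI −0.33), Fbn1, which encodes fibrillin (WT 2.23, KI 0.53), and Shroom3, a regulator of actin at cell junctions (WT 2.12, KI 0.46). Cilp ranged from 5.04 to 72.3 RPKM within the WT TAC group, with WT TAC mouse 9 at the low end. WT TAC mouse 9 was also the lowest of its group for Col1a1 (67.4 RPKM against 188 and 461) and Col3a1 (12.5 RPKM against 49.3 and 151). Neither fibrillar collagen passed the WT threshold (adjusted p = 0.0818 and 0.111, limma), with interactions of −2.17 (SE 0.78) and −2.36 (SE 0.95), the latter −1.51 without WT TAC mouse 10. Over the whole list, the median change against the shams of the same genotype was 1.24, 0.17 and 1.57 in WT TAC mice 7, 9 and 10, and −0.35, −0.31 and 0.14 in KI TAC mice 5, 6 and 7.

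Of 28 matricellular genes and proteases tested, 18 rose and 1 fell in WT and 16 rose and 1 fell in KI, and 12 rose in both. Of all genes, 6.96% rose in WT, 8.57% in KI and 3.75% in both. The list's median interaction was −0.08. It was 0.03 after median-ratio scaling, and ran from −0.40 without KI TAC mouse 7 to 0.02 without KI TAC mouse 6. Within it, 5 members had a positive and 8 a negative interaction at an unadjusted p under 0.05, against 3.86% and 11% of all genes. Tnc, which encodes tenascin C, was at 0.147 to 1.33 RPKM in sham hearts, at 38.1, 11.4 and 44.9 in WT TAC and at 7.04, 2.01 and 5.11 in KI TAC hearts, so that it rose in both genotypes (4.58 and 1.84) with an interaction of −2.74 (SE 0.63). Spp1, the gene of osteopontin, was at 0 to 0.174 RPKM in all sham hearts, at 6.73, 4.34 and 16 in WT TAC and at 0.561, 0.824 and 1.37 in KI TAC hearts. The WT and KI TAC hearts did not overlap for either gene. The Spp1 interaction was −2.28 (SE 0.43).

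The load markers of the myocyte did not move as 1 block. Of 17 fetal and hypertrophy genes tested, 13 rose in WT and 10 in KI, and the same 10 rose in both, against 6.96%, 8.57% and 3.75% of all genes. The list's median interaction was −0.06, or −0.37 after quantile normalization and 0.07 after median-ratio scaling. At an unadjusted p under 0.05 (limma), 1 member had a positive and 3 a negative interaction, against 3.86% and 11% of all genes. Nppb (brain natriuretic peptide) was at 900 to 1387 RPKM in WT TAC and 1278 to 2261 RPKM in KI TAC hearts, against 55.1 to 292 RPKM in sham hearts of either genotype, with an interaction of 0.64 (95% interval −0.83 to 2.11), or 0.02 without WT sham mouse 1 and 1.21 without WT sham mouse 2. Rcan1, a calcineurin target, likewise rose in WT (2.23) and KI (3.08), with an interaction of 0.85 (95% interval −0.30 to 2.0), or 0.35 without WT TAC mouse 10. Nppa (atrial natriuretic peptide) was at 483, 207 and 758 RPKM in WT TAC and at 57.8, 80.0 and 195 RPKM in KI TAC hearts, an interaction of −1.97 (SE 0.75, adjusted p = 0.255, limma). Myh7, the slow myosin heavy chain, was at 195, 176 and 380 RPKM in WT TAC and at 33.6, 47.0 and 21.1 in KI TAC hearts, an interaction of −1.84 (SE 0.63, adjusted p = 0.220, limma). Nppa and Myh7 were chosen here as load markers, so neither tells atrial tissue apart from the load response. Both were also put on the list of atrial myocyte markers, of which 5 were tested. The other tested markers of that list had interactions of −0.57 (Nr2f1, unadjusted p = 0.0113), −0.51 (Nr2f2, unadjusted p = 0.0801) and −0.51 (Dkk3, unadjusted p = 0.200, all limma, or −0.11 without WT TAC mouse 10), and the part of atrial tissue in the Nppa and Myh7 differences was not tested. WT sham mouse 2 had 145 RPKM of Myh7, far above the 26.5 to 42.6 RPKM of the other sham hearts. Xirp1, an intercalated disc protein, had the opposite sign, at 147 to 457 RPKM in WT TAC and 362 to 1502 RPKM in KI TAC hearts, an interaction of 1.68 (SE 0.64).

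The 47 genes of the WT-restricted fall included enzymes and muscle proteins. Strit1, a small peptide that activates the sarcoplasmic calcium pump, was at 10.9 to 14.4 RPKM in WT sham hearts and at 3.62 to 4.45 in WT TAC hearts, a change of −1.48 (SE 0.28, adjusted p = 0.00457). In KI hearts it was at 5.72 to 15.3 RPKM after sham and 8.09 to 14 after TAC, a change of 0.04 (SE 0.28, adjusted p = 0.928, limma). Dgat2, which makes triglycerides, fell by 1.65 in WT and had a KI change of −0.18. Prodh (proline dehydrogenase) fell by 1.48 in WT with a KI change of −0.49, and Ddit4, an inhibitor of mTOR signalling, fell by 1.40 with a KI change of 0.50. Myh6, the fast myosin heavy chain of the adult ventricle, fell from 3341 to 4836 RPKM after sham to 1392 to 2497 RPKM after TAC in WT, and was at 3043 to 3522 RPKM after sham and 2274 to 3784 RPKM after TAC in KI hearts. Its interaction was 1.08 (SE 0.37). Ldhb and Eno3, of glycolysis, also fell in WT, with interactions of 1.08 (SE 0.40) and 0.90 (SE 0.32).

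None of 54 nuclear genes for oxidative phosphorylation subunits was called in WT or in KI. Yet all 54 had a positive interaction (4109 of all 11240 genes), 30 of them at an unadjusted p under 0.05 (3.86% of all genes). The median change was −0.57 in WT and 0.19 in KI, and the median interaction was 0.73, between 0.56 and 0.97 over all leave-one-out fits. Sham hearts stood apart on this list, with medians against the mean of their own group of 0.36, −0.17 and −0.17 in WT sham mice 1, 2 and 3 and −0.36, 0.45 and −0.07 in KI sham mice 1, 2 and 3. The WT TAC hearts (−0.62, −0.52 and −0.55) lay below the WT shams, and the KI TAC hearts (−0.04, 0.45 and 0.18) lay about within the range of the KI shams. Cox7a1, a cytochrome c oxidase subunit of heart and muscle, was at 529 to 1165 RPKM in WT sham, 313 to 421 in WT TAC, 498 to 1112 in KI sham and 859 to 1153 in KI TAC hearts, an interaction of 1.36 (SE 0.46). Ndufs6 and Ndufa3 of complex I and Cox7c of complex IV had interactions of 1.17, 1.16 and 1.22. The 14 mitochondrially encoded genes had a median interaction of −0.03, which was 0.14 after median-ratio scaling and ran from −0.20 without WT sham mouse 2 to 0.22 without WT sham mouse 1, and none had an unadjusted p under 0.05. Fatty acid genes (35 tested, median interaction 0.49, 29 above 0) and branched-chain amino acid enzymes (23 tested, 0.35, 21 above 0) lay on the same side, as did the adult sarcomere genes (24 tested, 0.51, 18 above 0) and glycolysis (29 tested, 0.20, 19 above 0). Their counts above 0 stand against 4109 of all 11240 genes. Some of these medians rested on single mice. Without KI sham mouse 1 the median was 0.31 for the sarcomere genes and 0.00 for glycolysis, and without KI TAC mouse 6 it was 0.18 for the branched-chain enzymes. The sarcomere median was 0.19 after quantile normalization. The glycolysis median ran from 0.00 to 0.40 over the leave-one-out fits, at 0.40 without KI TAC mouse 5, and was 0.08 after quantile normalization.

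Transcript length moved with the oxidative phosphorylation result. The oxidative phosphorylation genes are short, with a median exon length of 1869.5 bases against 4282.5 bases for all genes tested, and the median interaction of all genes fell from 0.09 to −0.24 between the shortest and longest of 5 equal bins of length. Long genes lay above short ones by 0.15 to 0.26 in the 3 WT TAC hearts and below them by 0.06 to 0.19 in the 3 KI TAC hearts, while sham hearts ran from −0.44 (KI sham mouse 2) to 0.25 (KI sham mouse 1). With the length trend removed from each library, the median interaction of the oxidative phosphorylation genes was 0.71, against 0.00 for all genes. The collagen list, with long transcripts, was then at −0.74. The short cytosolic ribosomal protein genes (53 tested, median interaction 0.24) and the proteasome subunits (33 tested, 0.29) had no member with an unadjusted p under 0.05. The ribosomal median ran from 0.07 without KI sham mouse 1 to 0.47 without KI sham mouse 2, and the proteasome median from 0.20 without KI TAC mouse 7 to 0.46 without KI TAC mouse 5.

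**Figure D3:**
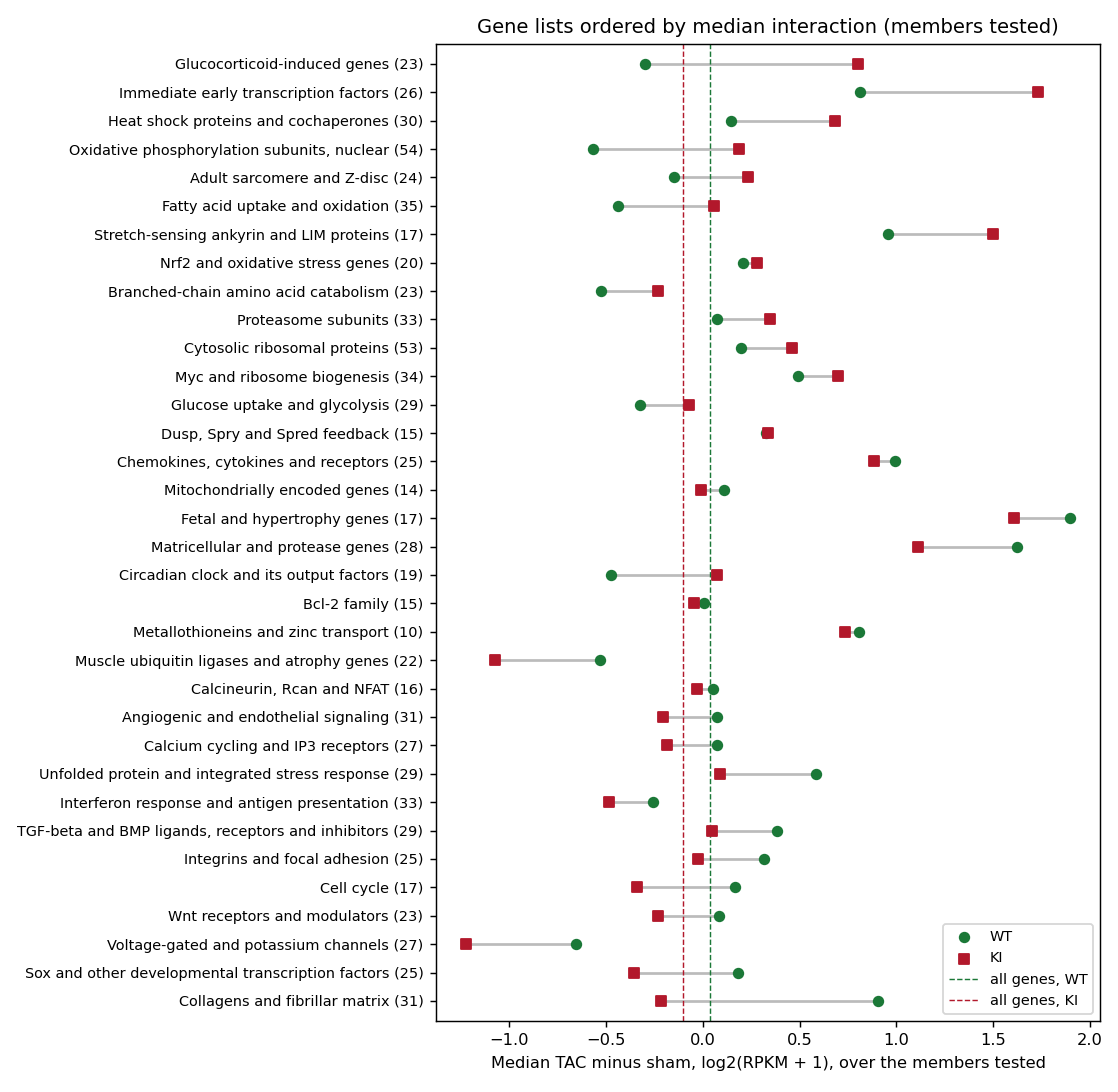
Median change after TAC (x axis, log2(RPKM + 1)) in WT (circles) and KI (squares) over the tested members of 34 gene lists, given in brackets and ordered by median interaction, with dashed lines at the medians of all genes. Glucocorticoid-induced, immediate early and heat shock genes lie at the top with the KI value higher, and collagens, Sox and other developmental factors and ion channels at the bottom with the KI value lower.

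The 128 genes of the KI-restricted rise were led by Arc, Egr1, Ptx3, Mt1 and Csrnp1. Mt1 encodes a metallothionein, a small metal-binding protein. It was at 22.9 to 32.3 RPKM in WT sham, 29.3, 87.7 and 28 in WT TAC, 13.9 to 39.0 in KI sham and 179, 206 and 166 in KI TAC hearts. Its KI change was 2.77 (SE 0.41, adjusted p = 0.000491), its WT change 0.56 (SE 0.41, adjusted p = 0.391, limma) and its interaction 2.21 (95% interval 0.97 to 3.44). Mt2 was at 2.64 to 9.75 RPKM in sham hearts, at 16.9, 69.3 and 9.38 in WT TAC and at 246, 254 and 146 in KI TAC hearts, and rose in both genotypes, with an interaction of 3.17 (SE 0.77, adjusted p = 0.129, limma). The 8 other tested genes of this list, zinc transporters and Mtf1, held no interaction with an unadjusted p under 0.05, and Slc39a14, a zinc importer, rose by 0.86 in WT and 0.88 in KI.

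The promoters of the pair are shown because metallothioneins are textbook targets of the metal-sensing factor MTF-1. The windows run from 250 bases before to 50 bases after the transcription start in RefSeq (GRCm38.p6, plus strand, chr8:94178839-94179138 for Mt1 and chr8:94172368-94172667 for Mt2), and capitals mark the metal response element core TGCNCNC with A or G as its first N, on either strand.
Mt1: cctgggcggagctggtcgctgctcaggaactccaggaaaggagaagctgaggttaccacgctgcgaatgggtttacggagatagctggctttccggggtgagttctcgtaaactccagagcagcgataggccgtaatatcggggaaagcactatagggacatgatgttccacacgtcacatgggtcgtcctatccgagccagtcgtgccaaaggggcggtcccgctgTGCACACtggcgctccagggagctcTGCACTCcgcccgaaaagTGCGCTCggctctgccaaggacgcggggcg
Mt2: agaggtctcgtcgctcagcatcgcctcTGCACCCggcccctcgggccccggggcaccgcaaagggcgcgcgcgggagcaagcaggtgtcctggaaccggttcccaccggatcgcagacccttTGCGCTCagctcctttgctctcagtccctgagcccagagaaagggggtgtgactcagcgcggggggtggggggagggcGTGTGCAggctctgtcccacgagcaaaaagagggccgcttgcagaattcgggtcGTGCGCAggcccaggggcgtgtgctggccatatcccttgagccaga
Mt1 held 3 matches and Mt2 held 4. A match was also found in 36.1% of the windows of all genes tested, in 25.6% of those of the KI-restricted rise and in 39.9% of those of the WT-restricted rise, so the core is common in promoters of every class. AP-1 letters (TGANTCA) were found in 11.6% of windows of the KI-restricted rise, 8.21% of the rise in both, 5.41% of the WT-restricted rise and 4.98% of all genes tested. RefSeq windows were found for 91 of the 128, 319 of the 422, 111 of the 152 and 8689 of the 11238 gene symbols tested.

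Immediate early genes, most of them transcription factors, are induced within minutes by stretch and stress. Of 26 tested, 7 rose in WT and 17 in KI, the 7 among the 17, against 6.96% and 8.57% of all genes. At an unadjusted p under 0.05, 9 had a positive interaction and 0 a negative one, against 3.86% and 11% of all genes. The list's median change was 0.81 in WT and 1.73 in KI, and its median interaction was 0.81, or 0.54 without WT TAC mouse 10. Arc, a cytoskeleton-associated protein and not a transcription factor, was at 0.978 to 1.47 RPKM in sham hearts, at 1.86, 5.28 and 1.14 in WT TAC and at 193, 26.1 and 6.57 in KI TAC mice 5, 6 and 7. Atf3 followed the same order within groups, at 11.5, 25.2 and 5.49 in WT TAC and at 545, 82.1 and 27.9 in KI TAC hearts, and Egr1 was at 13.0, 14.6 and 3.91 and at 100, 29.3 and 13.4. KI TAC mouse 5 was the highest heart for all 3 genes. Their interactions were 3.41 (SE 1.11), 2.91 (SE 1.08) and 2.23 (SE 0.89), and without single mice they ranged from 2.16 to 4.50, 1.75 to 3.87 and 1.47 to 2.88.

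Heat shock proteins shared that mouse. Of 30 tested, 2 rose and 1 fell in WT, near the 6.96% and 4.6% of all genes, and 11 rose and 0 fell in KI, against 8.57% and 14.7%. The median interaction was 0.75, or 0.46 without KI TAC mouse 5. Hspa1a and Hspa1b, inducible Hsp70 genes whose promoter windows differ at 4 of 300 bases and whose reads may be split between the copies, were at 1356 and 1690 RPKM in KI TAC mouse 5, at 75.1 and 79.9 in mouse 6 and at 4.66 and 5.99 in mouse 7. Neither interaction had an unadjusted p under 0.05 (0.0564 and 0.0714, limma). Hspb1, a small heat shock protein of the myofibril, was more even, at 330 to 1058 RPKM in WT TAC and 4950, 2161 and 1565 RPKM in KI TAC hearts, and rose in WT (2.10) and KI (3.85), with an interaction of 1.75 (SE 0.64). The list's median change against the own shams was 0.13, 0.08 and 0.19 in the WT TAC hearts and 1.10, 0.50 and 0.29 in KI TAC mice 5, 6 and 7.

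The Hspb1 promoter (RefSeq, GRCm38.p6, chr5:135887669-135887968, plus strand) is shown with its heat shock element letters GAA, any 2 bases and TTC in capitals, the site class bound by heat shock factors.
Hspb1: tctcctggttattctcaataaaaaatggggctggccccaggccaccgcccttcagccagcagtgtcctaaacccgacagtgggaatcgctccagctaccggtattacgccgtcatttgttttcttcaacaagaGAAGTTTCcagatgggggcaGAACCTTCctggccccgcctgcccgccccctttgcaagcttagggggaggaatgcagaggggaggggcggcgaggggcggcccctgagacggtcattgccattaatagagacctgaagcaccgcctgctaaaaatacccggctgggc
It held the letters at 2 positions. Of the windows of tested heat shock genes, 45.5% held them, against 5.55% of the windows of all genes tested, 6.98% of the KI-restricted rise and 5.41% of the WT-restricted rise.

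Other genes high in KI TAC included Pgf, Sphk1 and Plscr1. Pgf (placental growth factor, an angiogenic ligand) was at 0.951 to 2.52 RPKM in the 9 other hearts and at 16.8, 7.41 and 6.42 RPKM in KI TAC mice 5, 6 and 7. Its KI change was 2.05 (SE 0.29, adjusted p = 0.000349), its WT change −0.05 (adjusted p = 0.930) and its interaction 2.11 (95% interval 1.23 to 2.98, adjusted p = 0.0988, limma). Sphk1, which makes sphingosine 1-phosphate, was at 1.13 to 6.01 RPKM in WT TAC and 8.53 to 48.5 RPKM in KI TAC hearts, and Plscr1, a phospholipid scramblase, at 9.47 to 48.0 and 42.2 to 138. Ptx3 (pentraxin, an acute-phase protein) was at 0.842 to 1.89 RPKM in WT TAC and 28.7, 11.5 and 1.88 RPKM in KI TAC hearts, so the groups met at 1 mouse. The unfolded protein and integrated stress genes (29 tested) had a median interaction of −0.25, or −0.12 relative to all genes. It was −0.11 after quantile normalization and −0.13 after median-ratio scaling or without WT TAC mouse 10. Of these genes, Atf4 and its target Ppp1r15a rose in KI (1.78 and 2.33) with interactions of 1.19 and 1.58. Another 7 members had negative interactions at an unadjusted p under 0.05 (11% of all genes).

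Glucocorticoid-induced genes had the largest median interaction of the 34 lists, 1.08 (1.21 relative to all genes). It ran from 0.83 to 1.69 over the leave-one-out fits, and was 1.69 without WT TAC mouse 9. Of 23 tested, 3 rose and 3 fell in WT, where 6.96% and 4.6% of all genes did. In KI 9 rose and 2 fell, where 8.57% and 14.7% of all genes did. At an unadjusted p under 0.05, 12 interactions were positive and 0 negative, against 3.86% and 11% of all genes. The list shares Mt2 with the metallothionein list. Fkbp5, a co-chaperone and classical target of the glucocorticoid receptor, was at 1.30, 5.42 and 5.04 RPKM in WT sham, 1.31, 9.29 and 2.38 in WT TAC, 1.07, 4.77 and 4.42 in KI sham and 16.4, 27.5 and 14.7 in KI TAC hearts. KI TAC hearts were above all others, and sham mouse 1 of each genotype was the lowest of its group. The interaction was 2.35 (SE 0.76). Klf15, another target, fell in both genotypes (−1.40 and −1.05).

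WT TAC mouse 9 stood apart from its group for this list. The mean over the list, centred on all 12 hearts, was −0.79, −0.02 and −0.12 in WT sham, −0.66, 0.56 and −0.78 in WT TAC, −0.54, −0.09 and −0.14 in KI sham and 0.87, 0.92 and 0.79 in KI TAC hearts. Values of the clock gene Per1 were 26.1, 33.8 and 30.1 RPKM in WT sham, 9.46, 31.0 and 10.8 in WT TAC, 24.9, 28.3 and 35.5 in KI sham and 41.2, 34.7 and 48.6 in KI TAC hearts. The same WT TAC mouse was thus the highest of its group for Per1, though within the range of the sham hearts. Per1 is both a clock gene and a glucocorticoid target. Of 19 clock genes and clock outputs, 0 rose and 2 fell in WT, where 6.96% and 4.6% of all genes did. In KI 1 rose (Nfil3) and 3 fell, where 8.57% and 14.7% of all genes did. The median interaction of −0.08 was 0.05 after median-ratio scaling and 0.08 after quantile normalization, and ran from −0.20 without WT TAC mouse 9 to 0.15 without WT TAC mouse 10. The hour of surgery and stress hormone levels were not among the labels, and their part in these differences was not tested.

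Bcl2l1 (chromosome 2, 152780668 to 152831728), the gene of Bcl-xL itself, was in the KI-restricted rise. It was at 7.04, 14.2 and 15.4 RPKM in WT sham, 7.5, 17.2 and 6.59 in WT TAC, 6.67, 19.1 and 16 in KI sham and 35.8, 37.0 and 24.5 in KI TAC hearts. All KI TAC hearts lay above the 9 others, and sham mouse 1 of each genotype was again lowest in its group. The KI change was 1.26 (SE 0.40, adjusted p = 0.0354), the WT change −0.26 (SE 0.40, adjusted p = 0.706) and the interaction 1.51 (SE 0.56, 95% interval 0.31 to 2.72, adjusted p = 0.248, limma). A codon exchange need not alter transcript level, so this gene does not check the genotype labels. Of the 15 tested Bcl-2 family genes it was the only one that rose in KI, Bcl2l11 (Bim, pro-apoptotic) fell by 0.84, and 0 were called in WT, counts no higher than the 8.57% of all genes that rose and the 14.7% that fell in KI. Bcl2l11 was named after its value was seen, and the list's median interaction was −0.09 (0.05 after median-ratio scaling, from −0.29 without KI TAC mouse 7 to 0.02 with mouse 5 of that group left out).

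**Figure D4:**
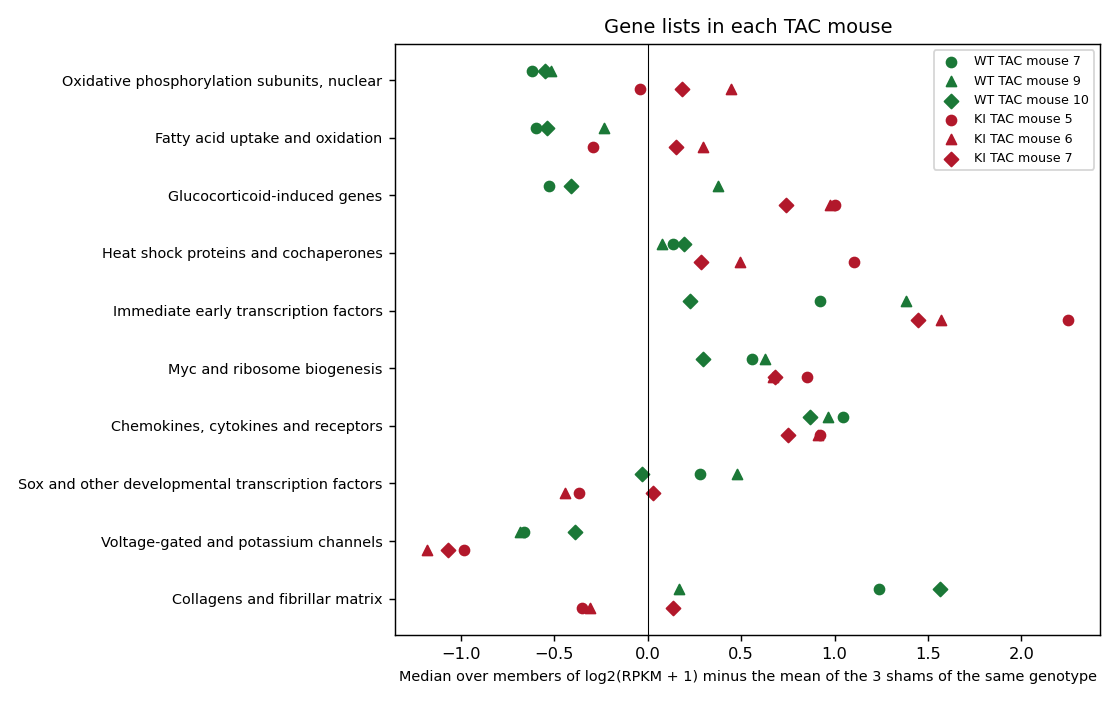
Median over the members of 10 gene lists of log2(RPKM + 1) in each TAC heart minus the mean of the 3 sham hearts of the same genotype (x axis), with WT hearts in green and KI hearts in red. Oxidative phosphorylation, heat shock, glucocorticoid-induced and ion channel genes separate the genotypes in all 6 hearts, collagens do so narrowly because WT TAC mouse 9 lies at 0.17, and chemokines overlap.

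The KI-restricted fall held 515 genes as deposited, 360 after quantile normalization and 340 after median-ratio scaling. Its median change was −0.83 in KI and −0.02 in WT. It was led by Fam78a, Lgr6, Dact3, Six5 and Ppargc1b. Dact3, an inhibitor of Wnt signalling through Dishevelled, was at 114, 87.4 and 57.5 RPKM in WT sham, 130, 71.1 and 91.4 in WT TAC, 123, 99.3 and 66.4 in KI sham and 35.1, 17.1 and 14.6 in KI TAC hearts. The KI change of −2.12 (SE 0.35, adjusted p = 0.00104) went with a WT change of 0.19 (SE 0.35, adjusted p = 0.762, limma). Ppargc1b, a coactivator of mitochondrial and metabolic genes, was at 23.5 to 76.0 RPKM in the 9 other hearts and at 6.25, 9.18 and 20.5 in KI TAC hearts, with an interaction of −2.08 (SE 0.60). Lgr6, a receptor for R-spondins that potentiate Wnt signals, fell by 2.12 in KI with a WT change of −0.30, and the homeobox gene Six5 fell by 2.06 with a WT change of −0.21.

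Of 25 developmental transcription factors tested, 2 rose and 1 fell in WT, near the 6.96% and 4.6% of all genes, and 1 rose and 6 fell in KI, against 8.57% and 14.7%. The median interaction was −0.54 (−0.41 relative to all genes), with 22 of 25 below 0 against 63.4% of all genes. Sox4, a factor of cardiac outflow development, had an interaction of −2.77 (SE 0.74), at 45.8, 56.3 and 23.6 RPKM in WT TAC and 16.7, 3.11 and 4.87 RPKM in KI TAC hearts. KI sham mouse 1 stood apart at 44.6 RPKM. Sox12, a relative of Sox4, was at 23.1 to 28.6 RPKM in WT sham, 17.7 to 36.7 in WT TAC, 29.2 to 36.4 in KI sham and 10.7, 6.35 and 10.5 in KI TAC hearts, an interaction of −1.87 (SE 0.36, adjusted p = 0.0988, limma). Nkx2-5, a core factor of the cardiac lineage, was at 223 to 355 RPKM in WT TAC and 100 to 206 RPKM in KI TAC hearts, an interaction of −1.24 (SE 0.40).

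Of 23 Wnt receptors and modulators, 3 rose and 0 fell in WT, where 6.96% and 4.6% of all genes did. In KI 0 rose and 4 fell, where 8.57% and 14.7% of all genes did. The median interaction was −0.39 (−0.26 relative to all genes), −0.17 after quantile normalization and −0.25 without KI TAC mouse 6. The secreted Wnt antagonist Sfrp2 fell by 1.70 in KI, with WT TAC hearts at 2.85, 1.76 and 18.0 RPKM and KI TAC hearts at 1.17, 0.982 and 0.722. Of 31 angiogenic and endothelial genes, 1 rose in WT, and 3 rose and 4 fell in KI, near the shares of all genes that rose (8.57%) and fell (14.7%) in KI. Plxnd1, a semaphorin receptor of endothelium, fell by 1.44 in KI (WT 0.18). The summed level of 10 endothelial markers was 424 to 516 RPKM in WT TAC and 522 to 538 RPKM in KI TAC hearts, which did not overlap, and 463 to 560 RPKM in the sham hearts. Its part in these differences was not tested. Of 29 TGF-beta and BMP genes, 5 rose and 2 fell in WT and 5 rose and 5 fell in KI, against 6.96% and 4.6% of all genes in WT and 8.57% and 14.7% in KI, with Bmp4 in the KI-restricted rise (interaction 1.14) and Ltbp3 in the KI-restricted fall (interaction −1.01).

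Of 27 voltage-gated and potassium channel genes tested, 9 fell in WT and 21 in KI, 8 in both, and none rose, against 4.6% and 14.7% of all genes that fell. The median change was −0.66 in WT and −1.22 in KI, a median interaction of −0.52, or −0.29 without KI TAC mouse 5. In the 3 WT TAC hearts the median change against the own shams was −0.66, −0.68 and −0.39, and in the KI TAC hearts it was −0.98, −1.18 and −1.07. Kcnq1, which carries the slow delayed rectifier current, was at 24.9 to 31.4 RPKM in WT sham, 34.5, 20.8 and 44.1 in WT TAC, 25.9 to 29.4 in KI sham and 16.3, 9.14 and 10.0 in KI TAC hearts, with KI TAC below all others. Its KI change was −1.22 (SE 0.26, adjusted p = 0.00450) and its interaction −1.38 (SE 0.37). Cacna1h (a T-type calcium channel) and Hcn4 (the pacemaker channel) had KI changes of −1.39 and −1.46 and WT changes of −0.10 and −0.03.

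Of 27 calcium cycling and inositol trisphosphate receptor genes, 1 rose and 3 fell in WT, where 6.96% and 4.6% of all genes did. In KI 1 rose and 8 fell, where 8.57% and 14.7% of all genes did. The list's median interaction was −0.24 (−0.11 relative to all genes, and 0.06 with the length trend removed). It ran from −0.40 without KI sham mouse 2 to −0.07 without KI sham mouse 1. Slc8a1, the sodium-calcium exchanger, was at 12.7 to 16.3 RPKM in WT sham and 24.0 to 47.3 in WT TAC hearts, against 13.4 to 17.7 in KI sham and 12.4 to 18.4 in KI TAC hearts, an interaction of −1.13 (SE 0.34). Camk2g, a calmodulin kinase, fell by 0.75 in KI with a WT change of 0.30. Of 16 calcineurin and NFAT genes, 2 rose in WT, where 6.96% of all genes did. In KI 2 rose and 2 fell, near the shares of all genes there (8.57% and 14.7%).

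Among the 422 genes that rose in both, 239 rose further in KI, and 63 had an unadjusted interaction p under 0.05, and among the 323 that fell in both, 195 fell further in KI and 29 passed that p. The leading rises were Ankrd2, Timp1, Thbs1, Serpina3n and Ccn2. Ankrd2, a stretch-responsive ankyrin repeat protein, was at 0.108 to 0.670 RPKM in sham hearts, at 44.4, 25.8 and 5.89 in WT TAC and at 76.1, 149 and 97.5 in KI TAC hearts, an interaction of 2.21 (SE 0.69), or 1.43 without WT TAC mouse 10. Timp1, an inhibitor of matrix proteases, was at 33.1 to 52.7 RPKM in WT TAC and 17.9 to 26.9 RPKM in KI TAC hearts, with changes of 4.86 and 3.64. Ccn2, a connective tissue growth factor, was at 121 to 431 RPKM in WT TAC and 263 to 346 RPKM in KI TAC hearts, and its changes of 3.32 and 3.35 gave an interaction of 0.03 (95% interval −1.07 to 1.13). Fhl1, a LIM protein of the stretch response, rose by 3.28 and 3.25. The signs of both interactions moved with the scaling. Of the 17 stretch-sensing ankyrin and LIM genes, 12 rose in both genotypes, against 3.75% of all genes, and the list's median interaction was 0.44, or 0.18 after quantile normalization.

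Of 25 chemokines, cytokines and their receptors tested, 16 rose in WT and 17 in KI, the 16 among the 17, and none fell, with median changes of 0.99 and 0.89. Of all genes, 6.96% rose in WT and 8.57% in KI, shares that also stand behind the Myc and oxidative stress counts. Socs3, the feedback inhibitor of cytokine receptors, was at 24.8 to 65.4 RPKM in WT TAC and 47.2 to 110 RPKM in KI TAC hearts (interaction 0.80, 95% interval −0.21 to 1.82, or 0.41 without WT TAC mouse 10). The sum of the 5 neutrophil markers in the table was 0.573 to 1.72 RPKM in sham hearts, 4.62 to 11.7 in WT TAC and 4.78 to 22.8 in KI TAC hearts. The sum of 10 macrophage markers was 113 to 190 RPKM in WT TAC and 118 to 150 RPKM in KI TAC hearts. Of 34 genes of Myc and ribosome biogenesis, 13 rose in WT and 24 in KI, 12 in both, and none fell. Hmox1, heme oxygenase, rose in both genotypes, with an interaction of 1.01 (SE 0.28), and of its list of 20 oxidative stress genes 4 rose and 1 fell in WT and 6 rose in KI.

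The leading falls in both were Scn4b, a sodium channel beta subunit (−2.30 in WT and −1.75 in KI), Snai3 (−1.88 and −1.92), Myh7b (−1.88 and −1.75), Asb10 (−1.80 and −1.84) and the transcript annotated as Mir208b (−1.62 and −1.72), which lies within Myh7, a gene that rose in WT, so that its value is uncertain. Of 22 muscle ubiquitin ligase and atrophy genes, 8 fell in WT and 12 in KI, the 8 among the 12, against 4.6% and 14.7% of all genes, and 1 rose in KI. Asb2, a ubiquitin ligase adaptor that targets filamins, was at 149 to 312 RPKM in WT TAC and 59.8 to 136 RPKM in KI TAC hearts, with changes of −1.07 and −2.46 (interaction −1.39, SE 0.45). Of 33 interferon response and antigen presentation genes, 1 rose and 1 fell in WT and 1 rose and 9 fell in KI, and of 25 integrin and focal adhesion genes 5 rose in WT, and 6 rose and 4 fell in KI. Of 17 cell cycle genes, 1 fell in WT, and 1 rose and 4 fell in KI. Of 15 Dusp, Spry and Spred feedback genes, 2 rose in WT, and 4 rose and 1 fell in KI, with Errfi1, a feedback inhibitor of the EGF receptor, in the KI-restricted rise (interaction 1.72, SE 0.63). The interferon, integrin, cell cycle and feedback counts are small and stand against 6.96% of all genes that rose and 4.6% that fell in WT, and 8.57% and 14.7% in KI.

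Fabp4, the fatty acid carrier of adipocytes and capillary endothelium, was at 18.0, 31.5 and 26.3 RPKM in WT TAC and at 62.5, 121 and 91.7 RPKM in KI TAC hearts. Its interaction was 1.65 (SE 0.38), one of the larger values relative to its error. The other adipocyte marker in the table, Cidea, was at 10.3, 11.7 and 17.9 RPKM in WT TAC and at 8.70, 16.9 and 22.7 in KI TAC hearts, with an interaction of 0.21 (unadjusted p = 0.651, limma). The part of adipocytes or endothelium in this was not tested.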

How the data were processed

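Poly(A) RNA from the hearts of 12 mice was sequenced with single reads of a strand-specific library. Per the study's methods and the submitters' processing notes, reads were trimmed with Trimmomatic 0.39, mapped to GRCm38 with HISAT2 2.2.1 and counted with HTSeq 0.6.1. The deposited values have no stated unit and were read as RPKM made by the authors, because each library's values times exon length summed to about the same total. How 13552 genes were chosen is not given in the sources used here. Replicates are separate mice, and origin or batch within a group is not labelled.

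Genes with at least 1 RPKM in 3 or more mice were fitted with limma 3.58.1 in R 4.3.3 on log2(RPKM + 1), with 1 mean per group, a trended variance prior and Benjamini-Hochberg adjustment over all genes tested. A gene was called at an adjusted p under 0.05. Genes named are the 10 lowest and 10 highest interactions, up to 5 per class, up to 4 per list with the largest interaction and 2 called in both genotypes with the smallest, plus Nppa, Nppb, Myh7, Rcan1 and Bcl2l1. Predicted genes and clones were passed over. The text names some of those the rule chose. Gene lists, members and rules were chosen with earlier results of these data known. Coordinates are from GENCODE M21. The fit was tested on simulated data. Alternatives covered the pseudocount, filters, scaling, weights, variance prior, voom on reads recovered from the RPKM steps, transcript length and each mouse left out.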

Additional observations from a re-analysis of the deposited data

How the results depend on the processing

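The interaction count stayed at 0 under the other pseudocount, both other filters, quantile and median-ratio scaling, the robust prior, both voom fits and removal of the length trend. It was 3366 with array weights, 50 at an adjusted p of 0.10, and 0 to 240 over the leave-one-out fits. The array weights give WT TAC mouse 7 a weight of 21.98 and their estimation stopped before converging. With them WT calls were 6789, and the classes held 2002 genes in both, 470 opposite, 1795 WT-restricted and 1019 KI-restricted. With a mean of at least 5 RPKM, which tests fewer genes, WT calls were 680 and KI calls 1364, with 400 genes in both, 3 opposite, 88 WT-restricted and 354 KI-restricted. At an adjusted p of 0.10 WT calls were 2064.

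Leaving out single mice gave 596 to 1525 WT calls and 1453 to 2981 KI calls. The classes then held 412 to 979 genes in both, 0 to 17 opposite, 83 to 255 WT-restricted and 383 to 966 KI-restricted. WT calls were lowest without WT TAC mouse 7 (596), and were 863, 646 and 677 without WT sham mice 1, 2 and 3. KI calls were lowest without KI sham mouse 3 (1453). The WT-restricted class held 83 genes without WT TAC mouse 7, 108 without WT sham mouse 2 and 112 without WT sham mouse 3. The KI-restricted class held 383 without KI TAC mouse 6, 385 without KI sham mouse 3 and 966 without KI TAC mouse 7. The class moved in both held 465 without KI sham mouse 3, 419 without WT TAC mouse 7, 412 without WT sham mouse 2 and 425 without WT sham mouse 3. The causes were not tested.

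Increases made up 60.2% of WT calls as deposited, 48.1% after quantile normalization and 51.1% after median-ratio scaling, and 36.8%, 48.3% and 51.5% of KI calls. Of 42 lists, the median interaction changed sign in 3 under quantile normalization, 9 under median-ratio scaling and 6 with the length trend removed. Interactions near 0 changed sign for Snai3 (0.075 median-ratio, 0.18 quantile), Ccn2 (−0.53 array weights, −0.31 quantile), Fhl1 (0.11 length trend removed, 0.14 in both median-ratio fits), Asb10 (0.033 length trend removed, 0.14 voom with median-ratio, 0.12 median-ratio, 0.026 quantile) and Mir208b (0.23 array weights, 0.068 voom with median-ratio, 0.063 median-ratio). Over single mice left out they ran from −0.35 to 0.22 for Snai3, −0.49 to 0.42 for Ccn2, −0.17 to 0.24 for Slc39a14, −0.36 to 0.21 for Fhl1, −0.11 to 0.61 for Klf15, −0.52 to 0.44 for Asb10, −0.16 to 0.50 for Myh7b, −0.076 to 0.57 for Cidea and −0.51 to 0.26 for Mir208b.

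With the replicate block over all 12 mice, added after seeing the data, the interaction had 0 calls and 1141 genes at an unadjusted p under 0.05. That fit leaves 2 residual degrees of freedom, and its TAC side rests on the 1 number (7) that WT and KI TAC mice share. Between the shams, the replicate block gave 0 calls and the sham-only fit without it 5, against 83 and 82 genes at an unadjusted p under 0.05 without and with the block. Deviations of same-numbered shams correlated at −0.22, −0.30 and 0.44, and those of differently numbered shams at −0.35 to 0.43. So few values cannot show whether the numbers pair the mice. With 3 mice a group, the median standard error of 0.27 limits what interaction could be detected.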
